A study of Mus musculus with 24 samples.

Results

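Pnpla2, Lipe, Mgll, Abhd5, G0s2, Plin1, Plin2, Plin4, Plin5 and Cidec, the genes of stored-fat breakdown and of the coat of the lipid droplet, were read from RNA-seq of retroperitoneal white adipose tissue, the fat depot behind the kidneys. The 10 genes were chosen by name from the 56895 entries that the 8 deposited comparison tables share, and all 10 passed the filter on low values in every comparison. The mice were C57BL/6J by the labels (C57BL/6JRJ in the study's methods), offspring of mothers that had eaten a diet with vitamin D3 at 1.0 IU/g (CTRL) or a vitamin D-deficient one at 0.0 IU/g (VDD), from 8 weeks before mating and through gestation. All dams received the control diet once the pups were born. At 6 weeks of age the offspring were given a low-fat AIN-93M diet (LF) or a diet with 45% of its energy from fat (HF) for 8 weeks, and were fasted overnight before the tissue was taken. Male and female mice of each of the 4 diet combinations gave 8 groups of 3, and the 24 libraries are named here by group and animal number. No source used here ties a mouse to its litter, so p-values measure the spread between these mice.

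Fat leaves an adipocyte in steps. Adipose triglyceride lipase (Pnpla2) removes the first fatty acid from a triglyceride, hormone-sensitive lipase (Lipe) acts mainly on the resulting diglyceride, and monoglyceride lipase (Mgll) releases the last fatty acid and glycerol. Abhd5 (CGI-58) activates Pnpla2 and is held by perilipin 1 (Plin1) until hormones such as noradrenaline, which act during fasting, set it free, while G0s2 binds Pnpla2 and inhibits it. Plin2, Plin4 and Plin5 are further coat proteins, of which Plin5 is typical of tissues that burn fat, and Cidec (FSP27) helps small droplets merge into the single large droplet of the white fat cell.

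Each library held between 13346779 and 18484346 reads, with a median of 15933506. Levels are given as normalized reads, that is reads after all 24 libraries were brought to a common depth. The white adipocyte marker list (7 genes, among them Adipoq) summed to between 128339 and 530254 normalized reads, so every library carried adipocyte RNA. These genes do not tell 1 fat depot from another. Xist stood between 8008 and 17238 normalized reads in females and between 4.24 and 178 in males, which matches the labelled sex. Other tissues were present in some libraries. The skeletal muscle list (8 genes) summed to a median of 1988 normalized reads but to 1003695 in the library of VDD LF male 2310. In VDD HF males it summed to 2065 to 337254, with a median of 229302, against 1910 to 3666 in CTRL HF males. Kidney genes such as Umod (1937 normalized reads) were seen in VDD LF female 2303 against at most 4.47 in any other library. The adrenal list (4 genes) had a median sum of 180.1. It reached 14214 in CTRL HF female 2292, mostly Cyp11a1 (12775) and Star (1424), and 10980 in VDD HF female 2121. In males the sum was at most 321. The list's remaining genes, Cyp11b1 and Th, reached at most 11.9 and 10.8 in any library. The list therefore does not tell which tissue gave these reads. CTRL HF female 2292 also had the lowest Pnpla2, Lipe, Abhd5, Plin2 and Cidec of the series. The mesothelium sum was highest there too (11516). By mean log2 level over the 24 libraries of both sexes, the adrenal list had Pearson correlations of -0.12 (G0s2) to -0.79 (Lipe) with the 10 members. After each group's mean was removed, they ran from -0.66 (Lipe) to 0.25 (Plin5). The part of the adrenal list in the members' values was not tested. Since the tissue was measured in bulk, fewer cells of a type and less RNA per cell cannot be told apart in any value below.

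The promoters of 3 members are shown as examples: Abhd5 and Plin5 from the results on offspring diet, Plin2 from those on sex and on the contrast between the maternal diets. Members not shown also differed. Cidec passed the study's thresholds in the averaged diet contrast, which Plin5 did not, and Plin4 differed more by sex than Plin2. The maternal difference of Plin2 did not pass adjustment. Each sequence is from RefSeq on build GRCm38.p6 and covers 250 bases before to 50 bases after the annotated start, read in the direction of the gene. In Plin2, capitals mark a match to the PPAR response element (AGGTCANAGGTCA) on the opposite strand with 2 mismatches at bases 26 to 38, and the E-box CACGTG at bases 247 to 252, counted from the first base shown. The Abhd5 and Plin5 windows held no match to any motif searched and are in lower case.
Abhd5, chr9:122351366-122351665, plus strand: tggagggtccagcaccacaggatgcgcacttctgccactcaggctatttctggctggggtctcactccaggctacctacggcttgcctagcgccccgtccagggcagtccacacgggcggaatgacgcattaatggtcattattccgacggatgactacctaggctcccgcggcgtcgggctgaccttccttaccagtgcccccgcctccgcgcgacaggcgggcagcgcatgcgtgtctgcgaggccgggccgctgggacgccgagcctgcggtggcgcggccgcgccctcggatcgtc
Plin5, chr17:56117499-56117798, minus strand: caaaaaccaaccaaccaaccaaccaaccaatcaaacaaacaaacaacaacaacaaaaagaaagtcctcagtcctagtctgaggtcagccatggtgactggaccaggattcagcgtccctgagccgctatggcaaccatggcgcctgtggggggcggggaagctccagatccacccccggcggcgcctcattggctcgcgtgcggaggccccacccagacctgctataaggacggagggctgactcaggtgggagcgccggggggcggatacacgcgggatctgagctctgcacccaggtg
Plin2, chr4:86670010-86670309, minus strand: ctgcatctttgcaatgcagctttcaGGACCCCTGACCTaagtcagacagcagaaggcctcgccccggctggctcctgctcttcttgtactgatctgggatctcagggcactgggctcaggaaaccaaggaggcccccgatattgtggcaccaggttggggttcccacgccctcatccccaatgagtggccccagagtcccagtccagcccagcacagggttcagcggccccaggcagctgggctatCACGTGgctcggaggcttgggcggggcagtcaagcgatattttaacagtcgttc

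All 10 members matched the promoter table, with 14 annotated starts between them. The 4 motifs were searched on both strands. The PPAR response element with up to 2 mismatches was found in 1 of the 14 member promoters, that of Plin2, and in 3.86% of all 32851 promoters of the same length. CACGTG was found in 3 (Plin2, Mgll and Lipe) against 7.15% of all promoters. TATAAA, present in 13.6% of promoters, the C/EBP core TTGCGCAA, present in 0.183%, and an exact PPAR response element, present in 0.0396%, were in 0 of the 14. A match is a string of letters, and occupancy was not measured.

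The members differed widely in abundance. Per kb of exon, the median over the 24 libraries was highest for Cidec at 29283 normalized reads per kb, followed by Pnpla2 at 12486 and Plin4 at 7658. Plin1 (4679), Lipe (4079), G0s2 (3313) and Mgll (3159) formed the middle of the order on the same scale. Plin2 stood at 1911, Abhd5 at 559 and Plin5 at 233 normalized reads per kb, so the coactivator of Pnpla2 was far below its lipase at the RNA level. Plin4 and Plin5 are neighbours on the minus strand of chromosome 17 with 1797 bases between them.

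The spread between mice of 1 group, as a standard deviation on the log2 scale, was smallest for Abhd5 (0.242) and largest for Plin5 (0.809) and G0s2 (0.599). CTRL LF males had the highest group mean for 6 members (Pnpla2, Lipe, G0s2, Plin1, Plin2 and Cidec), and CTRL HF females had the lowest for 6 (Pnpla2, Lipe, Abhd5, Plin2, Plin5 and Cidec). For 6 members (Pnpla2, Mgll, Abhd5, G0s2, Plin1 and Cidec) every pair of neighbouring groups in the order of means overlapped, so those orders are not resolved step by step. These counts of members are given without a share over all genes. Whether they differ from those of other gene sets was not tested.

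**Figure D1:**
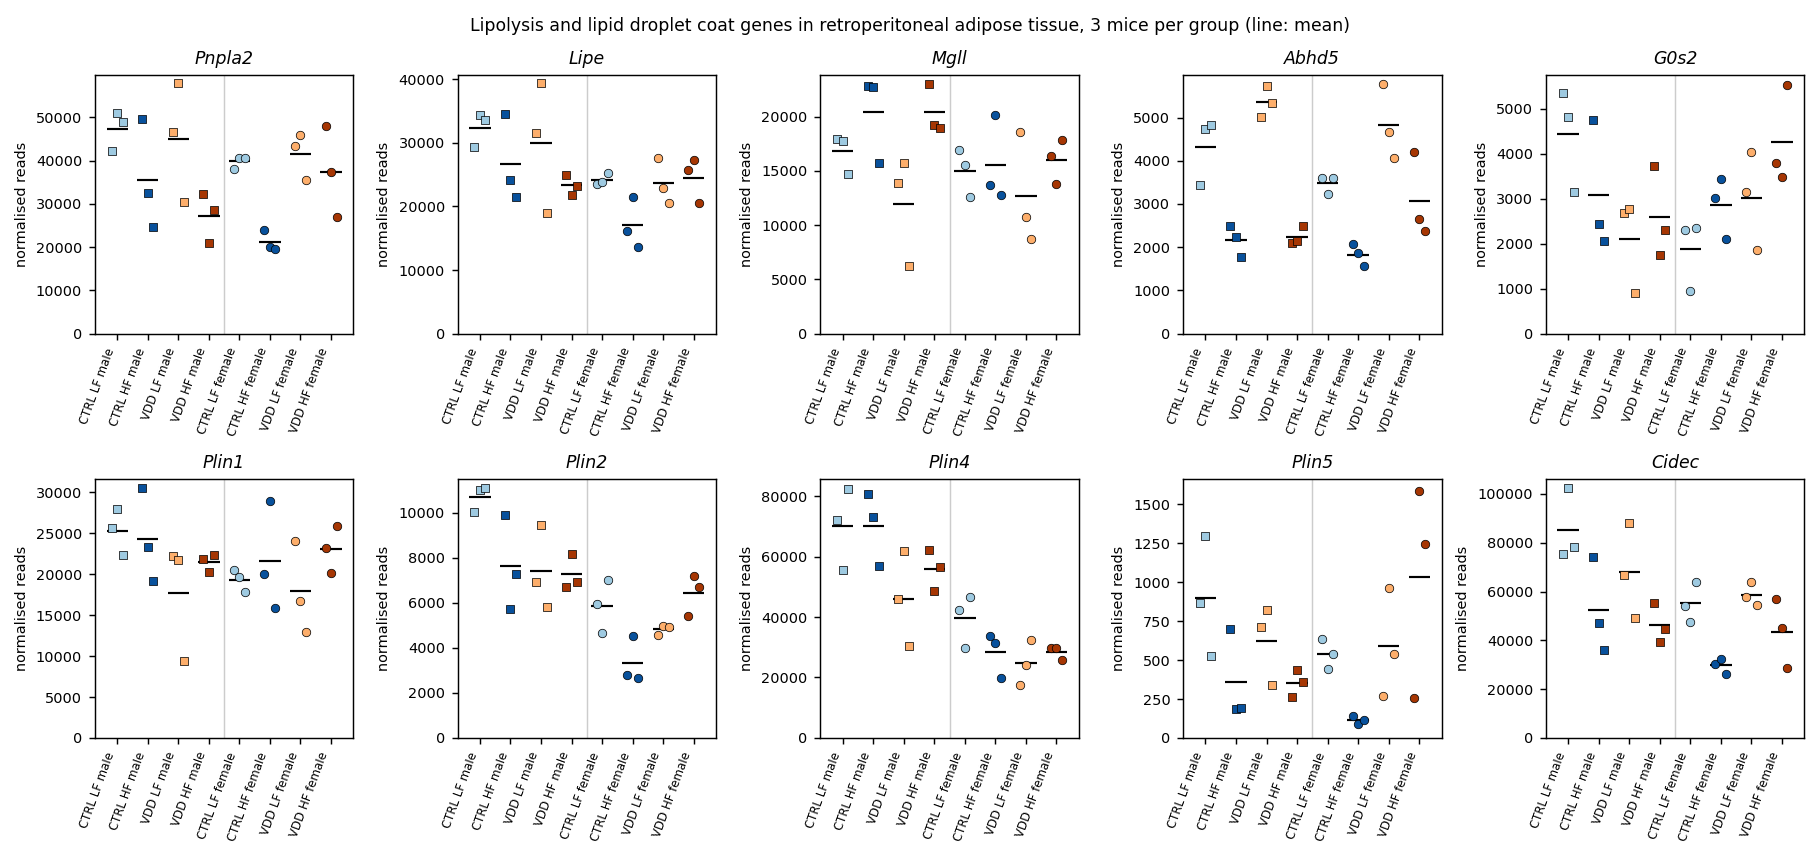
Normalized reads (linear y axis from 0) of each of the 10 genes in each of the 24 libraries, by group on the x axis; points are single mice, squares males and circles females, and the line is the mean of 3 mice. Abhd5 is at 2654 or less in 11 of the 12 HF libraries and at 3228 or more in all LF libraries, and Plin4 is high in males.

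The first question was how the HF diet changed the genes in each sex and maternal group. The tests used limma within each table of 6 libraries, with the study's own thresholds for a call (adjusted p below 0.01 and a fold above 1.5 or below 0.66). By these, 0 of the 10 members were called in CTRL males, where 0.0578% of all genes were, 0 in VDD males (0.0752%), 0 in CTRL females (0%) and 0 in VDD females (0%), and limma-voom, run on the reads recovered from the values, called 0 in each as well. At an adjusted p below 0.05, Abhd5 was lower in VDD males, where 2.35% of genes were, and Pnpla2, Abhd5 and Plin5 were lower in CTRL females, where 4.16% were. No member passed that threshold in CTRL males, where 0.468% of genes were lower, or in VDD females, where 0% of genes passed in either direction. The study, which used DESeq2, reported many more genes at its thresholds in each of the 8 comparisons. In simulated data the limma tests used here called 0% to 19% of 2-fold changes and 19% to 63% of 4-fold changes. The changed genes were drawn across a wide range of levels, so the share for the 10 members is not known. A count of 0 calls is therefore no sign that a gene did not change.

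At an unadjusted p below 0.05, 2 members were lower with HF in CTRL males (Abhd5 and Plin5) against 8.73% of genes, 1 in VDD males (Abhd5) against 12.2%, 6 in CTRL females (Pnpla2, Lipe, Abhd5, Plin2, Plin5 and Cidec) against 14.4%, and 1 in VDD females (Abhd5) against 2.54%. None of the 10 was higher at that level in VDD males, CTRL females or VDD females, against 13.7%, 14.4% and 2.51% of genes, and the single positive estimate in CTRL males was that of Mgll (p 0.356). The median log2 fold change of the members was -0.506 in CTRL males, -0.151 in VDD males, -0.708 in CTRL females and 0.321 in VDD females, beside medians over all genes of -0.0219, 0.0112, 0.0123 and -0.0066. With 1 library left out, the member median ran from -0.741 to -0.298 in CTRL males, from -0.823 to -0.56 in CTRL females and from 0.16 to 0.308 in VDD females. In VDD males it ran from -0.387 without VDD LF male 2310 to 0.065 without VDD LF male 2302, so its sign rests on 1 mouse.

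Since the 4 tables share no library, their HF effects were also averaged in 1 limma fit over the 24 libraries, a contrast added after the separate values were seen. In this average Abhd5 fell to 0.511 of its LF level (log2 fold change -0.97 ± 0.10, SE; adjusted p 4.4e-06) and Cidec to 0.631 (-0.66 ± 0.15, adjusted p 0.00326), both past the study's thresholds, as were 3.65% of genes in the lower direction. Pnpla2 (-0.57 ± 0.14, fold 0.675, adjusted p 0.00575) missed the fold threshold alone, and Plin5 (-0.97 ± 0.30, adjusted p 0.0207) passed only the adjusted p below 0.05 that 14.2% of genes passed in that direction. The other 6 members did not pass. Among them Mgll stood at 0.39 ± 0.15 above its LF level (adjusted p 0.0612). Without CTRL HF male 2127, 4 members were called (Pnpla2, Abhd5, Plin5 and Cidec). Without VDD HF female 2121, 1 was called (Abhd5). The column names of 6 libraries carry the word renal, whose meaning no source used here gives, and none of the 6 is an HF female. In the other 18 libraries Abhd5 stood at -0.98 (adjusted p 0.000657), while Cidec (-0.56, adjusted p 0.0504), Pnpla2 (-0.47, adjusted p 0.0577) and Plin5 (-0.83, adjusted p 0.17) missed the 0.05 threshold.

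**Figure D2:**
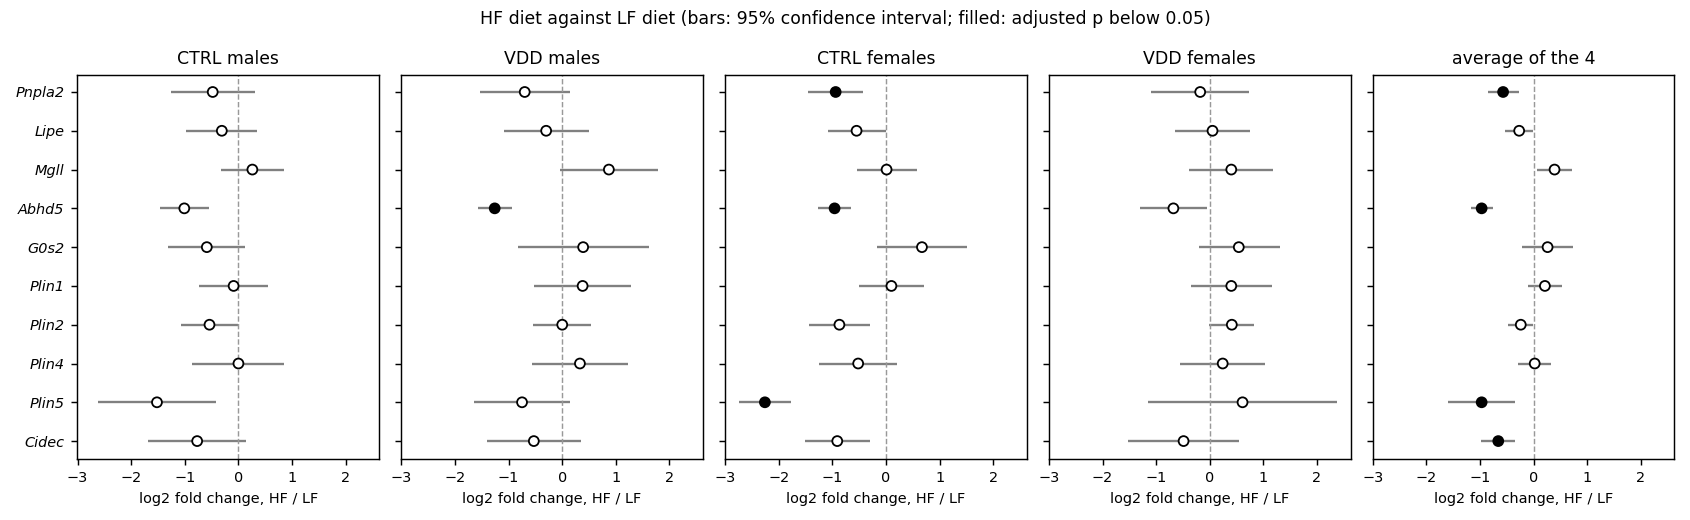
Log2 fold change of HF over LF (x axis) for each member in the 4 tables and in their average; points are limma estimates, bars 95% confidence intervals, and filled points have an adjusted p below 0.05. Abhd5 lies to the left of 0 in all 5 panels, from -0.68 in VDD females to -1.26 in VDD males.

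Abhd5, the coactivator of Pnpla2, was lower with HF in all 4 tables by its mean. In males it stood at 3431, 4738 and 4820 normalized reads in CTRL LF mice and at 2479.8, 2226 and 1784 in CTRL HF mice. VDD LF males had 5024, 5728 and 5332, and VDD HF males 2102, 2144 and 2487.6. The groups did not overlap in either maternal group of males. Here and below, a lack of overlap between groups of 3 mice is a description, and its share over all genes is not given. The log2 fold change was -1.01 ± 0.21 in CTRL males (adjusted p 0.0553, and 0.0307 to 0.108 under the alternative settings) and -1.26 ± 0.13 in VDD males (adjusted p 0.0137, alternatives 0.00168 to 0.0211). With 1 mouse left out, the VDD male value had an adjusted p of 0.00745 to 0.0969, below 0.05 in 3 of 6 fits.

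In females Abhd5 stood at 3604, 3228 and 3612 normalized reads in CTRL LF mice against 2064, 1866 and 1563 in CTRL HF mice. The groups were again apart, with a log2 fold change of -0.96 ± 0.13 (adjusted p 0.0206, alternatives 0.0156 to 0.0963, below 0.05 in 3 of the 6 fits with 1 mouse left out). VDD females were less separated, at 5784, 4656 and 4067 for LF and 4200, 2654 and 2370 for HF (-0.68 ± 0.27, adjusted p 0.837). Over the whole series, and counted after the values were seen, 11 of the 12 HF libraries lay below the lowest LF library (3228), the exception being VDD HF female 2081 at 4200. In the average over the 4 tables the adjusted p was at most 1.86e-05 with any 1 library left out, and it passed in the 18 libraries as well.

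Pnpla2, the lipase that starts triglyceride breakdown, was lowest in HF females of CTRL mothers. It stood at 38071, 40674 and 40665 normalized reads in CTRL LF females and at 23930, 19986 and 19532 in CTRL HF females. These groups did not overlap, and the log2 fold change was -0.94 ± 0.22 (adjusted p 0.045). That call was lost in each of the 6 fits with 1 mouse left out (adjusted p 0.0734 to 0.146), and the alternative settings gave 0.0281 to 0.139. In VDD females the LF values were 43431, 45826 and 35610 and the HF values 48007, 37346 and 26878, which overlap (-0.18, 95% interval -1.10 to 0.73). Males of CTRL mothers had 42231, 50878 and 48874 on LF and 49681, 32437 and 24739 on HF, the highest HF value being that of mouse 2127. VDD males had 46518, 57956 and 30504 on LF and 32273, 20926 and 28630 on HF. The male estimates were -0.48 ± 0.35 and -0.70 ± 0.35 (adjusted p 0.492 and 0.267).

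Lipe, the hormone-sensitive lipase, ranged from 13700 normalized reads in CTRL HF female 2292 to 39463 in VDD LF male 2302. Its HF estimates were -0.31 in CTRL males, -0.30 in VDD males, -0.55 in CTRL females and 0.05 in VDD females, with adjusted p from 0.164 to 0.983. In CTRL females the LF mice had 23492, 23807 and 25338 normalized reads and the HF mice 16150, 21492 and 13700, so these groups did not overlap although the adjusted p (0.164) missed the threshold. The 95% interval of the averaged difference ran from -0.53 to -0.01.

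Mgll, which acts last, was the member with the highest HF estimate in males. VDD LF males had 13910, 15713 and 6266 normalized reads and VDD HF males 23053, 19258 and 19005 (log2 fold change 0.87 ± 0.38, adjusted p 0.21). Without VDD LF male 2310 the estimate was 0.45. Its 6266 reads were the lowest of these, and it was the mouse whose library was richest in skeletal muscle RNA and that also had the lowest G0s2 (893) and Plin1 (9362) of the series. With the muscle list as a covariate over the 24 libraries, the averaged HF value of Mgll was 0.40 (adjusted p 0.0635), and those of Pnpla2, Abhd5, Plin5 and Cidec were -0.56, -0.97, -0.96 and -0.66. In CTRL males and CTRL females the Mgll estimates were 0.26 (95% interval -0.33 to 0.85) and 0.01 (-0.55 to 0.57).

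G0s2, the inhibitor of Pnpla2, was the noisiest member after Plin5. CTRL LF males had 5336, 4822 and 3136 normalized reads and CTRL HF males 4748, 2444 and 2065, whereas CTRL LF females had 2312, 952 and 2348 and CTRL HF females 3014, 3429 and 2104. The groups overlapped in both sexes. The HF estimate was -0.59 ± 0.32 in CTRL males and 0.67 ± 0.36 in CTRL females, and the test of the difference between these sexes gave 1.27 ± 0.54 (p 0.0358, adjusted p 0.649). Single mice moved these values: the estimate was -0.35 in CTRL males without HF mouse 2131 and -0.95 without HF mouse 2127, and 0.24 in CTRL females without LF mouse 2125. The difference between the sexes was 0.84 without that female. G0s2 overlaps Lamb3 on the other strand, whose median was 109.6 normalized reads and which reached 282, against at least 893 for G0s2.

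Among the coat genes, Plin5 had the largest HF estimate. CTRL LF females had 638, 445 and 541 normalized reads and CTRL HF females 144, 88.1 and 114. Every LF value was more than 3 times every HF value, and the log2 fold change was -2.26 ± 0.21 (fold 0.209, adjusted p 0.0129). The adjusted p was 0.0172 to 0.0755 with 1 mouse left out, below 0.05 in 5 of 6 fits, and 0.00405 to 0.121 under the alternative settings. Brown adipocyte markers moved beside it: the 6-gene list, described further on, summed to 549 to 8740 normalized reads in CTRL LF females and to 85.3 to 536 in CTRL HF females, with 5 of 5 tested genes lower and 1 of them, Cox7a1, at an adjusted p below 0.05 (0.0365). In CTRL males the sums were 410 to 1924 and 139 to 435, and the part of brown adipocytes in the Plin5 values was not tested. CTRL males had 869, 1296 and 526 on LF and 698, 188 and 195 on HF, overlapping only through mouse 2127 (-1.52 ± 0.49, adjusted p 0.155). VDD males had 710, 818 and 343 on LF and 266, 438 and 362 on HF (-0.75, 95% interval -1.64 to 0.15). VDD females went the other way in their means, with 272, 965 and 536 on LF and 254, 1588 and 1248 on HF, but the groups overlapped (0.61, interval -1.15 to 2.37).

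Cidec, the droplet fusion protein, was the most abundant member per kb. It stood at 54133, 47493 and 63751 normalized reads in CTRL LF females and at 30480, 32384 and 26389 in CTRL HF females (log2 fold change -0.91 ± 0.26, adjusted p 0.0761). CTRL males had 75541, 102376 and 78324 on LF and 74192, 47223 and 35926 on HF. The HF values were below the LF values in both, without overlap, although the highest HF value, that of CTRL HF male 2127, was close to the lowest LF value. VDD males had 66944, 87882 and 49113 against 55173, 39477 and 44474, and VDD females had 57609, 64054 and 54564 against 57021, 44897 and 28473. These VDD groups overlapped (-0.53 and -0.49, adjusted p 0.414 and 0.865). In 9 of the 12 HF libraries Cidec was below the lowest LF library of the series.

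Plin2, a coat protein found in most cell types, showed an HF difference in CTRL females only at the unadjusted level. CTRL LF females had 5948, 4674 and 7007 normalized reads and CTRL HF females 2800, 4525 and 2650 (-0.87 ± 0.24, p 0.00822, adjusted p 0.0702). In VDD females the order was turned, with 4549, 4990 and 4934 on LF and 5392, 7201 and 6707 on HF (0.41 ± 0.18, p 0.058, adjusted p 0.837). The LF and HF values did not overlap in either table, and they lay apart in opposite directions. CTRL males had 10036, 11004 and 11079 on LF and 9876, 5720 and 7267 on HF, which did not overlap either (-0.54 ± 0.24, adjusted p 0.268), and VDD males gave 0.00 with a 95% interval of -0.54 to 0.53.

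Plin1, the main gatekeeper of the white droplet, and Plin4, a coat protein of adipocytes, showed no HF difference that could be detected at this number of mice. Plin1 ranged from 9362 to 30585 normalized reads, with HF estimates of -0.09, 0.38, 0.10 and 0.40 in CTRL males, VDD males, CTRL females and VDD females. The 95% interval of its average was -0.11 to 0.52, and that of Plin4 was -0.30 to 0.33. A change of either gene by the size seen for Abhd5 lay outside these intervals.

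Markers of other cells moved with the HF diet in some of these tables. In CTRL females all 6 macrophage genes were higher with HF (summed level 4181 to 6303 normalized reads for LF, 10147 to 13335 for HF), as were all 4 mesothelium genes (3188 to 3414 against 6035 to 11516). The adrenal list stood at 273 to 1325 for LF and 393 to 14214 for HF in this table, with overlap. The white adipocyte sum was 217897 to 300878 for LF and 198061 to 260288 for HF there, so it overlapped. Of its 7 genes, 3 were higher and 4 lower with HF in CTRL females. Only Pparg had an adjusted p below 0.05 (limma, log2 fold change -0.79, adjusted p 0.0378), at 3251 to 4053 for LF and 1681 to 2425 for HF. In VDD males the white adipocyte sum was 253070 to 411794 for LF and 128339 to 181437 for HF, without overlap, with 5 of 7 genes lower. Cfd, a secreted protease of fat cells, carried that gap: it stood at 171083 to 303168 for LF and 35464 to 56181 for HF. Adipoq overlapped (51247 to 67012 against 52932 to 74394), and Lep was higher with HF (117 to 629 against 14378 to 15908), so the sum does not stand for a lower level of every adipocyte gene. The part of these markers in the HF values above was not tested.

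The maternal question was asked in the same way, with VDD against CTRL mothers within each sex and offspring diet. These 4 tables reuse the same 24 libraries as the diet tables, so each group enters a diet and a maternal comparison. By the study's thresholds 0 of the 10 members were called in LF males, HF males, LF females and HF females, where 0% of all genes were called in each, and limma-voom also called 0 members. At an adjusted p below 0.05 the share of genes was 0% in each too.

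Among HF females, all 10 members had a higher mean in the offspring of VDD mothers, with a median log2 fold change of 0.571 beside 0.00126 over all genes. Of these, 4 had an unadjusted p below 0.05 (Pnpla2, Abhd5, Plin2 and Plin5), against 7.60% of genes in that direction, and 0 were lower against 9.10%. None passed adjustment. In LF males 9 of the 10 estimates were negative (median -0.533), and 2 had an unadjusted p below 0.05 (G0s2 and Plin2) against 3.67% of genes, with 0 higher against 3.12%. That median was -0.148 without VDD LF male 2310, the library richest in muscle RNA. HF males had 0 in either direction (2.12% lower and 3.18% higher among all genes), and LF females had 1 higher, Abhd5, against 5.52% of genes, and 0 lower against 6.53%. All 8 skeletal muscle genes were higher with VDD mothers in both male tables, 0 of them at an adjusted p below 0.05. Their median log2 fold change was 3.49 in LF males and 5.8 in HF males.

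**Figure D3:**
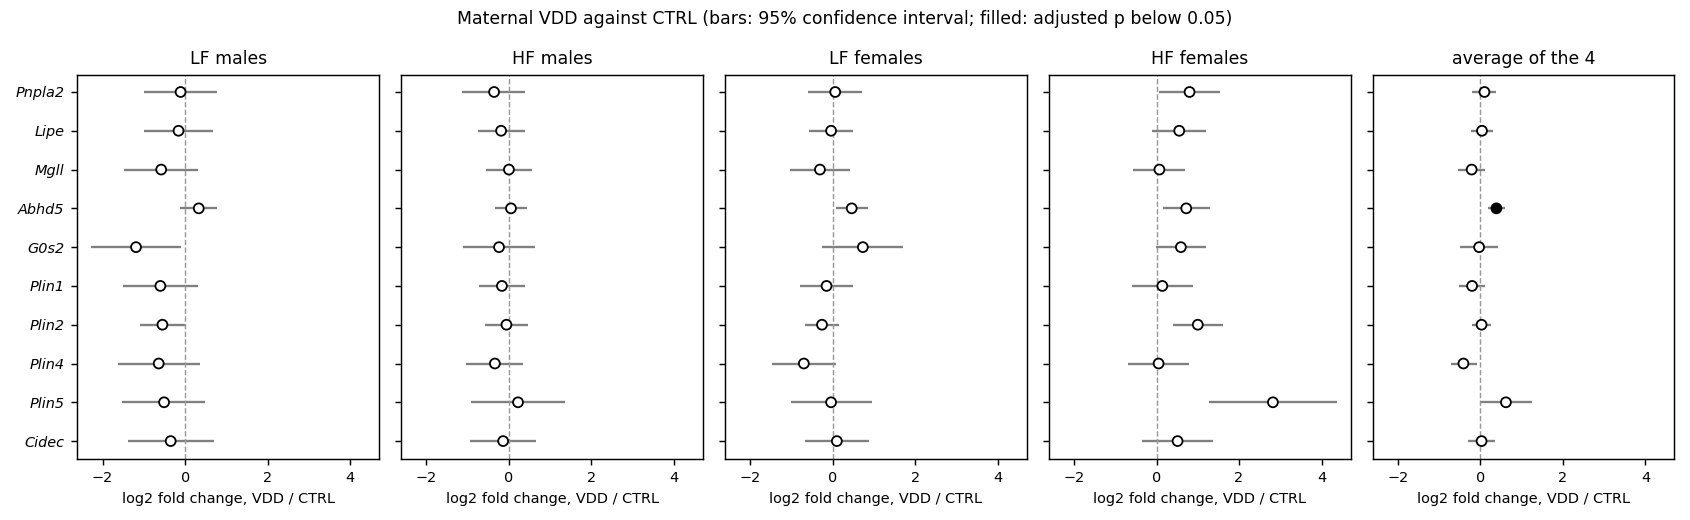
Log2 fold change of VDD over CTRL (x axis) for each member in the 4 tables and in their average; points are limma estimates, bars 95% confidence intervals, and the filled point has an adjusted p below 0.05. Plin5 in HF females (2.82) is the farthest from 0, with the widest interval, 1.27 to 4.37.

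Plin5 had the largest maternal estimate. CTRL HF females stood at 144, 88.1 and 114 normalized reads and VDD HF females at 254, 1588 and 1248. All VDD values were above all CTRL values, but mouse 2081 was far below its 2 group mates. The log2 fold change was 2.82 ± 0.66 (p 0.00356, adjusted p 0.157), 2.32 without mouse 2083 and 3.64 without mouse 2081, with adjusted p of 0.0302 to 0.505 over the 6 fits with 1 mouse left out. In LF females the same contrast was -0.04 (95% interval -1.02 to 0.94), in LF males -0.51 (-1.52 to 0.49) and in HF males 0.22 (-0.93 to 1.37).

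Plin2 in HF females was 2800, 4525 and 2650 normalized reads for CTRL mothers and 5392, 7201 and 6707 for VDD mothers. The groups did not overlap, and the log2 fold change was 1.00 ± 0.25 (p 0.00557, adjusted p 0.165, alternatives 0.0539 to 0.215). Pnpla2 had an estimate of 0.80 ± 0.31 (p 0.0383, adjusted p 0.269) and Abhd5 of 0.72 ± 0.24 (p 0.0189, adjusted p 0.219), each without overlap between the groups. In LF males G0s2 was 5336, 4822 and 3136 for CTRL and 2674, 2758 and 893 for VDD mothers (-1.19 ± 0.46, p 0.0356, adjusted p 0.691), and the estimate was -0.66 without VDD LF male 2310. Plin2 was 10036, 11004 and 11079 against 6917, 9454 and 5812 in the same table (-0.55 ± 0.23, p 0.0471, adjusted p 0.719). Neither set of groups overlapped.

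Averaged over the 4 maternal tables, again a contrast added after the separate values were seen, 0 members passed the study's thresholds against 0.103% of genes. Abhd5 was higher with VDD mothers by a log2 fold change of 0.39 ± 0.10 (fold 1.31, adjusted p 0.0331), below the 0.05 that 2.53% of genes passed in that direction. It was not stable. The adjusted p was 0.016 to 0.0664 with 1 library left out, below 0.05 in 14 of 24 fits, and 0.191 in the 18 libraries without renal in their column names. With the muscle list as a covariate it was 0.0531, at a log2 fold change of 0.41. Plin4 had an estimate of -0.41 ± 0.15 (adjusted p 0.116) and Plin5 of 0.62 ± 0.30 (adjusted p 0.225). For Lipe and Cidec the 95% intervals were -0.22 to 0.30 and -0.29 to 0.35.

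The tests of whether the HF effect depended on the mother or on sex called 0 members by the study's thresholds in any of the 5 interactions, as they called 0% of all genes. In females, 2 members had an unadjusted p below 0.05 against 7.76% of genes. These were Plin2, whose HF effect was 1.25 ± 0.31 higher on the log2 scale with VDD mothers (p 0.00194, adjusted p 0.594), and Plin5, at 2.85 ± 0.87 (p 0.00705, adjusted p 0.601). In males 0 members reached that level against 3.86% of genes. For sex, 1 did in CTRL offspring, G0s2 as given above, against 7.41% of genes, and 0 did in VDD offspring against 8.63%. The interaction of all 3 factors had 0 against 7.71%.

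Brown adipocyte markers moved beside Plin5. In VDD HF females Cidea, a droplet protein of brown and beige fat cells, stood at 788, 10362 and 5451 normalized reads, in CTRL HF females at 217, 39.3 and 18.2, and in CTRL LF females at 2253, 2698 and 272. Ucp1, the uncoupling protein that makes brown fat produce heat, stood at 899.6, 4578 and 25479, at 215, 8.6 and 0.8, and at 2910, 5278 and 135 in the same 3 groups. The 6-gene brown list summed to 2010 to 33717 in VDD HF females against 85.3 to 536 normalized reads in CTRL HF females, with 5 of 5 tested genes higher in VDD HF females and 0 of them at an adjusted p below 0.05. The mesothelium list went the other way, at 807 to 3507 against 6035 to 11516. Over the 24 libraries, the log2 level of Plin5 had a Pearson correlation of 0.85 with Cidea and 0.61 with Ucp1, and 0.75 and 0.59 after each group's mean was removed. All these levels come from the same libraries, so the correlations are descriptions, and here too the part of brown adipocytes was not tested.

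**Figure D4:**
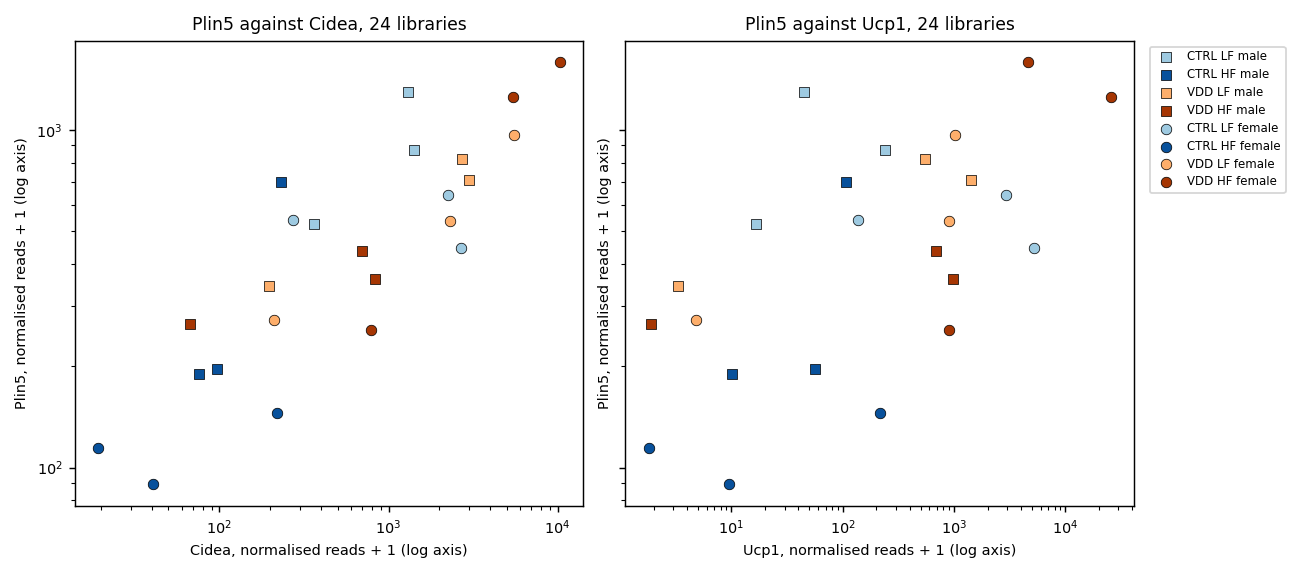
Plin5 (y axis) against Cidea and Ucp1 (x axes), in normalized reads plus 1 on log axes, 1 point per library, squares for males and circles for females. Mice 2083 and 2121 of the VDD HF females are at the upper right and the CTRL HF females are at the lower left, with Plin5 at 144 or less.

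Among the members, the coat genes Plin4 and Plin2 were higher in males. Averaged over the 4 combinations of diets, in the same fit over 24 libraries, Plin4 was 2.00 times as high in males as in females (log2 fold change 1.00 ± 0.15, adjusted p 0.000134) and Plin2 was 1.64 times as high (0.71 ± 0.11, adjusted p 0.000227). Both passed the study's thresholds, which 2.76% of genes did in that direction, and both were below an adjusted p of 0.05, as were 9.04% of genes. The other 8 members did not pass either rule. Cidec (0.42 ± 0.15, adjusted p 0.058) and Lipe (0.32 ± 0.13, adjusted p 0.078) came nearest, and the 95% intervals of Abhd5 (-0.13 to 0.28) and Plin1 (-0.21 to 0.41) held 0.

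For Plin4 the males of CTRL mothers had 72235, 55670 and 82465 normalized reads on LF and 80817, 72943 and 56997 on HF, and those of VDD mothers 46093, 61798 and 30260 on LF and 62170, 48739 and 56484 on HF. The females of CTRL mothers had 42390, 29874 and 46668 on LF and 33807, 31271 and 19824 on HF, and those of VDD mothers 17654, 24274 and 32280 on LF and 29767, 29592 and 25828 on HF. In 10 of the 12 male libraries Plin4 was above the highest female library, and for Plin2 this held in 7 of 12. The lowest male Plin4 was again that of mouse 2310, and without it the log2 fold change was 1.07. Plin4 overlaps Hdgfl2 on the other strand, whose highest level was 594 normalized reads. The endothelium list (3 genes) was also higher in HF males, at 6923 to 12905 normalized reads, than in HF females, at 5512 to 9297, with overlap. On LF the female range, 4479 to 9094, lay within the male range, 3821 to 10085. The mean log2 level of the endothelium genes had a Pearson correlation of 0.73 with Plin4 over the 24 libraries, and their part in the Plin4 values was not tested.

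Ratios within a library do not depend on its depth. Some of those between lipolytic genes lay apart by diet in some tables and overlapped in others. The ratio of Mgll to Pnpla2, in reads per kb, was 0.179 to 0.253 in CTRL LF males and 0.273 to 0.416 in CTRL HF males. It was 0.122 to 0.178 against 0.395 to 0.547 in VDD males and 0.184 to 0.265 against 0.341 to 0.600 in CTRL females. The HF range lay above the LF range in these 3 tables, while in VDD females the ranges overlapped (0.140 to 0.254 against 0.203 to 0.394). The ratio of the inhibitor G0s2 to Pnpla2 was 0.0811 to 0.211 in CTRL LF females and 0.373 to 0.595 in CTRL HF females, and 0.101 to 0.199 against 0.279 to 0.400 in VDD males. It overlapped in CTRL males (0.223 to 0.438 against 0.261 to 0.331) and in VDD females (0.181 to 0.305 against 0.274 to 0.712).

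The ratio of the activator Abhd5 to Pnpla2 was lower with HF in CTRL males (0.0412 to 0.050 against 0.0253 to 0.0366) and in VDD females (0.0515 to 0.0675 against 0.0360 to 0.0447). In VDD males the ranges overlapped (0.0501 to 0.0886 against 0.0330 to 0.0519), and so they did in CTRL females (0.0402 to 0.0480 against 0.0406 to 0.0473). The ratio of Plin1 to Cidec was higher with HF in CTRL males (0.109 to 0.135 against 0.165 to 0.213), VDD males (0.0761 to 0.132 against 0.158 to 0.205) and CTRL females (0.112 to 0.165 against 0.240 to 0.356). In VDD females it overlapped (0.0950 to 0.167 against 0.162 to 0.363). These ratios were chosen after the levels were seen and are given without a test.

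**Figure D5:**
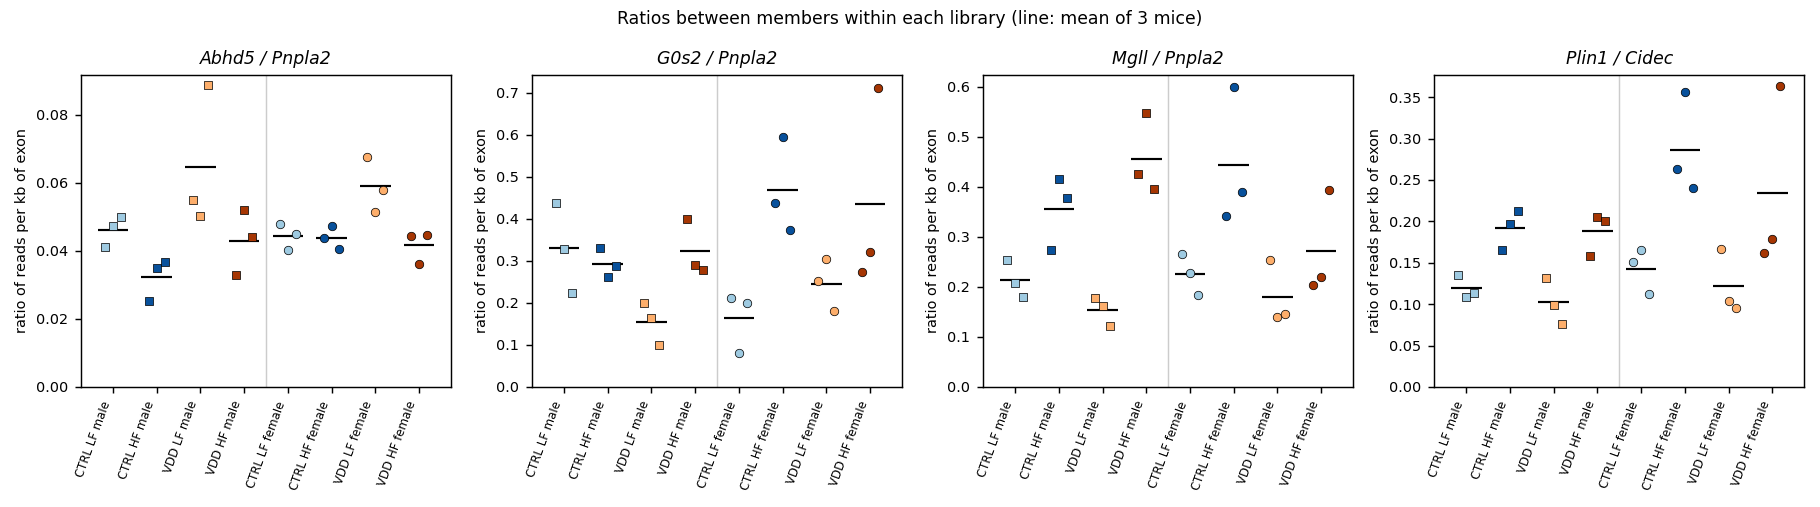
Ratios of reads per kb of exon between pairs of members (linear y axes from 0) in each of the 24 libraries by group; points are single mice, squares males and circles females, and lines the mean of 3. Mgll over Pnpla2 is 0.395 or higher in VDD HF males and 0.178 or lower in VDD LF males.

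The members varied together to different degrees over the 24 libraries, by their log2 levels. Pnpla2 and Cidec had a Pearson correlation of 0.90 (0.91 after group means were removed), and Mgll and Plin1 of 0.89 (0.94). Pnpla2 had 0.83 with Lipe (0.78) and 0.80 with Abhd5 (0.64). With Mgll it had -0.01, which became 0.48 once group means were removed, and Mgll and Abhd5 went from -0.40 to 0.27. All points share the depth and the dissection of their library. Among 12902 genes searched, the most alike were Aifm2 (0.93) and Gne (0.91) for Pnpla2, Dolk (0.92) and Fah (0.90) for Lipe, and Mcam (0.90) and Plin1 for Mgll. They were Cdadc1 and Bnip3 (both 0.92) for Abhd5, Fzd8 (0.75) and Mpv17l2 (0.74) for G0s2, and Mgll and Kctd17 (0.85) for Plin1. For the others they were Tatdn2 and Ctcflos (both 0.87) for Plin2, Gm37795 (0.93) and Ctcflos (0.92) for Plin4, Slc25a20 (0.91) and Acadl (0.88) for Plin5, and Gne and Fitm2 (both 0.93) for Cidec. Slc25a20 carries acylcarnitines into mitochondria and Acadl is a dehydrogenase of fatty acid oxidation.

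A further 35 genes of the pathway were read in the same fits: 10 that control lipolysis, 7 other lipases and an inhibitor, 12 other droplet proteins, and 6 that handle glycerol and fatty acids. By the study's thresholds, 0 of them were called in any of the 8 tables. At an adjusted p below 0.05, CTRL females had 8 lower with HF of 33 tested, where 4.16% of all genes were. These were Fitm2 (-0.81 ± 0.11), which helps droplets form, Dgat1 (-0.97 ± 0.15), which completes triglyceride synthesis, Pde3b (-1.16 ± 0.22), through which insulin restrains lipolysis, Ddhd2 (-1.17 ± 0.17), Bscl2 (-0.81 ± 0.17), Acsl1 (-1.31 ± 0.27), Aqp7 (-0.80 ± 0.19) and Ces1f (-0.98 ± 0.23). In CTRL males 3 of 32 were lower, against 0.468% of genes: Adora1 (-1.21 ± 0.21), an antilipolytic receptor, Acsl1 (-1.56 ± 0.28), which activates fatty acids, and Cidea (-2.89 ± 0.54). VDD males had Fitm2 (-0.76 ± 0.16) lower, against 2.35% of genes, and the caveolar genes Cav1 (1.70 ± 0.23) and Cavin1 (1.29 ± 0.26) higher, where 3.00% of genes were higher. None passed in VDD females, where Adora1 (-0.62 ± 0.27) and Adrb1 (0.82 ± 0.37) came nearest (adjusted p 0.837 for both).

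None of the further genes passed in the 4 maternal tables either. The genes nearest to it were Cidea (6.02 ± 1.16, adjusted p 0.132) and Dgat1 (0.82 ± 0.19, adjusted p 0.158) in HF females, Aqp7 (-0.51 ± 0.14, adjusted p 0.391) in LF females, Ces1f (-0.72 ± 0.16, adjusted p 0.94) in HF males, and Lipa (-0.61 ± 0.17, adjusted p 0.641) and Hilpda (-0.67 ± 0.24, adjusted p 0.683) in LF males. In the maternal average Cidea stood at 2.04 ± 0.68 (adjusted p 0.0858). The interactions had the smallest p for Adrb1 (2.42 ± 0.76) and Cav1 (0.98 ± 0.36) by mother in males, Aqp7 (1.01 ± 0.28) and Ddhd2 (0.99 ± 0.29) by mother in females, Aqp7 (-0.92 ± 0.27) and Ddhd2 (-0.50 ± 0.23) by sex in CTRL offspring, Cav1 (-1.32 ± 0.34) and Ces1f (1.76 ± 0.52) by sex in VDD offspring, and Ddhd2 (1.23 ± 0.48) and Ces1f (1.62 ± 0.69) for all 3 factors. None of these interactions passed, with adjusted p from 0.273 to 1.0.

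In the averaged HF contrast, several of these genes were called, in the lower direction against 3.65% of all genes and in the higher against 5.79%. Among those lower with HF were Fitm2 (-0.65), Acsl1 (-1.09), Pde3b (-1.0), Ddhd2 (-0.71), Adora1 (-0.83), Dgat1 (-0.74) and Ces1f (-0.77), while Cavin1 (0.63) and Cav1 (0.87) were higher. At an adjusted p below 0.05, Bscl2 (-0.52), Rab18 (-0.30), Ces1d (-0.45), Abhd6 (-0.29), Cidea (-1.93) and Gpd1 (-0.68) were lower as well, against 14.2% of genes. Plin3 (0.47), Pnpla3 (1.0) and Adra2a (0.68) were higher at that level, against 15.0%.

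By sex, Aqp7 (0.95 ± 0.13), the channel by which glycerol leaves the cell, Hilpda (0.94 ± 0.16), an inhibitor of Pnpla2, and the noradrenaline receptor gene Adrb1 (0.92 ± 0.23) were higher in males by the study's thresholds (adjusted p 5.58e-05, 0.000433 and 0.00835), against 2.76% of genes. Cavin1 (0.53), Fitm2 (0.33), Lipa (0.39) and Hsd17b11 (0.24) were higher at an adjusted p below 0.05, against 9.04% of genes. Lower in males at that level were 5 of the 35, against 10.8% of genes: Abhd6 (-0.36, adjusted p 0.0179), Pnpla3 (-1.11, 0.0275), Ldah (-0.31, 0.0374), Plin3 (-0.25, 0.0421) and Cideb (-1.50, 0.0422).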

How the data were processed

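RNA from 24 mice was sequenced from stranded mRNA libraries. Per the labels and the study's methods, the authors used Sickle for trimming and STAR 2.7.0d for alignment to mm10, added transcripts assembled with Cufflinks 2.2.1 to GENCODE, counted with featureCounts 1.6.1 (no source used here gives its strand setting) and normalized with DESeq2. The authors deposited log2 values (normalized reads plus 1) in 8 tables of 6 libraries. The authors' fold changes and p-values in those tables were not used. Undoing the log gave whole reads for 100% of values within 0.02; 4 of 56899 entries with repeated names were left out. limma 3.58.1 (R 4.3.3; trend, Benjamini-Hochberg) was fitted to each table over genes with 10 normalized reads in 3 libraries, and interactions and averages to recovered reads rescaled together, from which all levels come. Fold changes are on the log2(value + 1) scale. Levels per kb use GRCm38 exons. limma-voom, other filters, scalings, pseudocount 10, a muscle covariate and leave-one-out fits were alternatives. The tests were tested on simulated data with 200 changed genes, with the share recovered given above. Members and lists were chosen with earlier results of these data known; averages and ratios after values were seen. The rule for named genes was every member, and of the 35 further genes those called and the 2 smallest p in each comparison; those with an adjusted p below 0.05 are named as well. Results of 1 of these are not reported here.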

Additional observations from a re-analysis of the deposited data

Results flagged for a closer look

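The HF estimates of Plin2 pointed in opposite directions in the 2 maternal groups of females, and neither passed adjustment (limma, adjusted p 0.0702 with CTRL and 0.837 with VDD mothers). Its log2 fold change of HF over LF was -0.87 in CTRL females, where every HF mouse was below every LF mouse, and 0.41 in VDD females, where every HF mouse was above every LF mouse. The test of the difference itself gave 1.25 ± 0.31 on the log2 scale (limma, p 0.00194), with an adjusted p of 0.594 over all 17430 genes tested, so it does not pass correction.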

How the results depend on the processing

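The count of members past the study's thresholds was 0 in each of the 8 tables. For HF against LF in VDD males it was 1 (Abhd5) with an adjusted p below 0.05 alone. It was also 1 with 1 fit over the 12 male libraries, and with that fit plus the muscle covariate. Among all genes, the fit over the 12 male libraries called 614 in this comparison, against 12 in the main fit. With 1 library left out the count of members ran from 0 to 1 (1 without VDD LF male 2310). In CTRL females it was 3 with an adjusted p below 0.05 alone, and 1 (Plin5) both with no filter and with a filter at 50 normalized reads. Each of these filter settings called 13 of all genes there, against 0 in the main fit. The averaged HF count of 2 was 4 with an adjusted p below 0.05 alone and 1 in the 18 libraries without renal in their column names, and ran from 1 to 4 with 1 library left out. The averaged maternal count of 0 was 1 with an adjusted p below 0.05 alone, and the count of 2 by sex was 1 (Plin4) in the 18 libraries. The median member change for VDD against CTRL in LF males (-0.533) ran from -0.748 to -0.148 with 1 library left out. Apart from the looser threshold, the causes were not tested. No member value with an unadjusted p below 0.05 in the 8 tables changed sign, while 6 of 80 did under other settings and 27 of 80 with 1 library left out, the smallest p among them being 0.353. No paired analysis was possible because the columns carry animal numbers and no replicate number of the labels.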
